A study of Mus musculus with 18 samples.

Results

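The genes described here are 8 that build and regulate the ion transport of endolymph, the fluid that bathes the hair cells of the inner ear. They are Kcne1, Kcnq1, Kcnj10, Slc12a2, Bsnd, Atp6v1b1, Atp6v0a4 and Foxi1, listed by name as known genes of this transport, with earlier results of these data known. All 8 of 8 were found among the 19938 genes measured, each read by 1 probe set. Their levels were read in vestibular organs, which sense head position and movement, from mice that lack Igf1 (Igf1 -/-, here Igf1 null) and from wild-type mice (Igf1 +/+), both on a hybrid of Mf1 and 129/sv. The missing gene codes for an insulin-like hormone that promotes growth and survival of many tissues. There were 3 arrays from each genotype at E18.5, the end of embryonic life, at P15 and at P90, 18 arrays in 6 groups, labelled as biological replicates.

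Endolymph is rich in potassium and poor in sodium, and hair cells use its potassium as the current that carries their signal. In the vestibular organ it is secreted by dark cells, which take potassium up across the basolateral membrane through the cotransporter NKCC1 (Slc12a2), return the chloride that enters with it through channels that need barttin (Bsnd), and release the potassium into endolymph through a channel made of KCNQ1 and its subunit KCNE1. Another cell population, marked in mouse by the transcription factor Foxi1, carries a vacuolar proton pump (V-ATPase) with the subunits encoded by Atp6v1b1 and Atp6v0a4 and the anion exchanger pendrin, and helps to set the pH of endolymph. Loss of most of these genes in mouse or human is known to disturb endolymph, hearing or balance.

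Levels are given in log units after quantile normalization of the 18 arrays. The base of the deposited logarithm is not settled, so that 1 unit stands for 2.72-fold if it is natural or for 2-fold if it has base 2. A difference was called at an adjusted p under 0.05 in 1 limma fit over all genes and arrays, with Benjamini-Hochberg adjustment. Igf1 itself, read over the whole gene, lay between 6.40 and 6.88 in Igf1 null and 6.98 and 7.07 in wild-type arrays at E18.5. At P15 it lay between 5.42 and 5.69 in Igf1 null and 5.87 and 6.11 in wild-type arrays, and at P90 the genotypes overlapped (5.31 to 5.51 and 5.39 to 5.63). The free-text description of 6 wild-type arrays, those of P15 and P90, names the null genotype, against their title, source and genotype, which were followed here. Many arrays held both female-specific Xist and Y-linked signal, and the number of animals behind an array is not given, so the tests weigh differences against the spread of arrays, which may be partly technical. At P90, Xist was 7.42 to 7.91 in Igf1 null and 1.86 to 3.33 in wild-type arrays. Igf1 null replicates 2 and 3 at E18.5 and wild-type replicates 1 and 2 at P90 stood apart together on the third principal component (scores of 13.5 to 18.8). At its other end lay the 3 Igf1 null arrays of P90 (-25.0, -15.4 and -12.5) and wild-type replicate 3 of P90 (-12.0).

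Between E18.5 and P15 the 3 genes of the proton-secreting cells fell and Kcnj10 rose in both genotypes. Of the dark cell genes, Kcnq1 fell in both, and Kcne1, Bsnd and Slc12a2 were each called in 1 genotype. In Igf1 null mice 6 of the 8 genes were called, 2 higher and 4 lower at P15, against 40.8% of all genes called, 20.3% higher and 20.5% lower. In wild-type mice 7 of 8 were called, 1 higher and 6 lower, against 41.5% of all genes called, 19.7% higher and 21.9% lower. Foxi1, Atp6v1b1, Atp6v0a4 and Kcnq1 were lower and Kcnj10 was higher in both genotypes, where 15.2% of all genes were called lower in both and 15.9% higher in both. The median difference over the 8 genes was -0.29 in Igf1 null and -0.57 in wild-type mice, beside -0.04 and -0.05 over all genes. The vestibular tissue was measured in bulk, so fewer cells of a type and less RNA per cell cannot be told apart in any of these values.

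**Figure D1:**
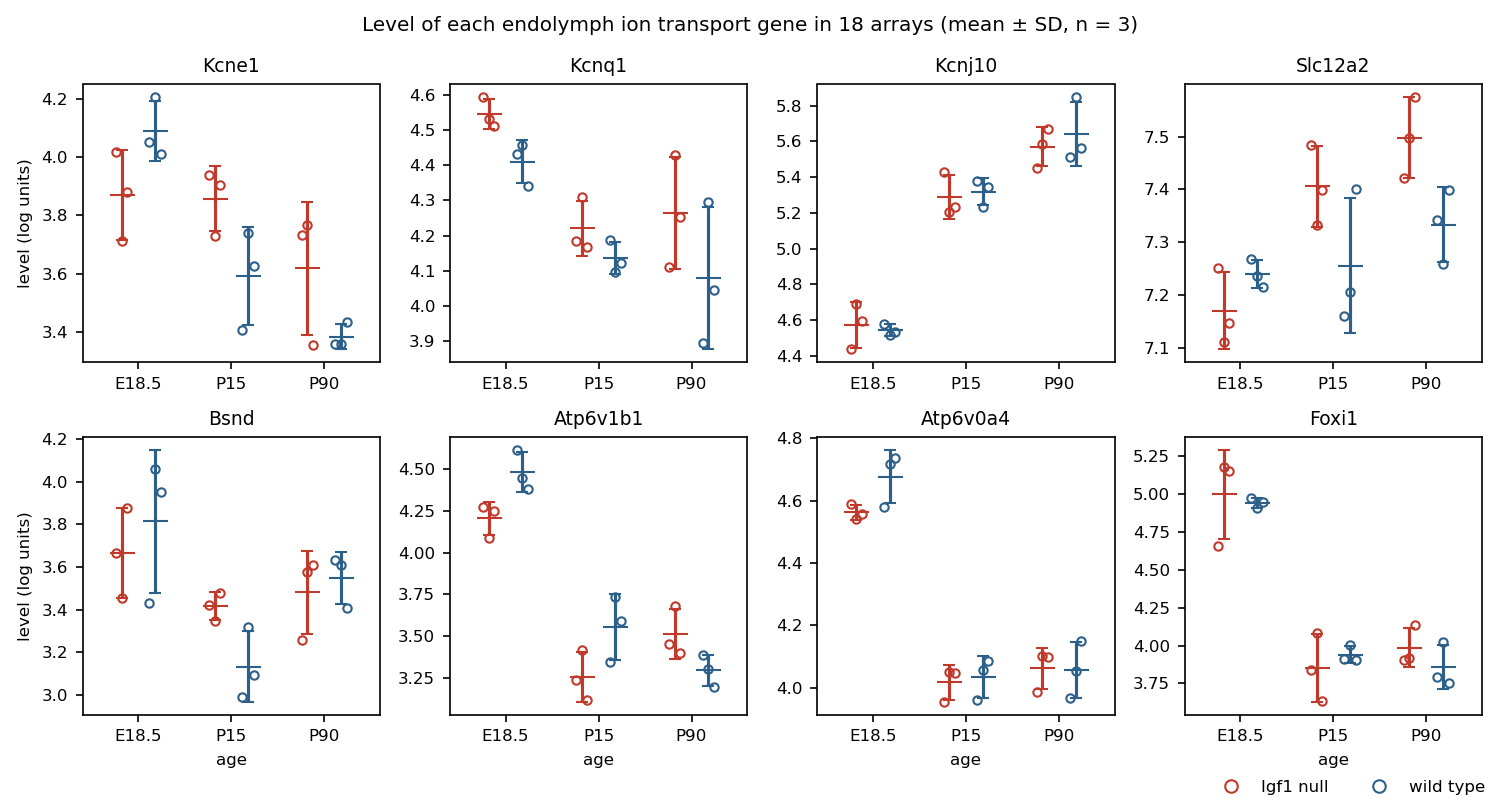
Level of each of the 8 genes in every array, in log units, against age, with Igf1 null arrays (red) left of wild-type arrays (blue) and bars for the mean and SD of 3 arrays. Foxi1, Atp6v1b1 and Atp6v0a4 lie highest at E18.5, Kcnj10 lies lowest there, and the vertical axes differ between panels.

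Foxi1, the transcription factor on which the proton-secreting cells of the mouse ear and kidney depend, had the largest decline of the 8. At E18.5 its level was 4.66, 5.18 and 5.15 in the Igf1 null arrays and 4.97, 4.91 and 4.95 in the wild-type arrays. At P15 it was 3.84, 4.08 and 3.63 in Igf1 null and 3.91, 4.00 and 3.90 in wild-type arrays, and at P90 it was 3.91, 3.92 and 4.13 in Igf1 null and 3.79, 4.02 and 3.75 in wild-type arrays. Every embryonic array was above every postnatal array, and Igf1 null replicate 1 was the lowest of the 6 embryonic ones. The P15 minus E18.5 difference was -1.15 ± 0.14 (SE) in Igf1 null mice (limma, adjusted p = 5.9e-06) and -1.001 ± 0.14 in wild-type mice (limma, adjusted p = 2.12e-05). In wild-type mice this leaves 0.368 of the embryonic level if the logarithm is natural and 0.50 if it has base 2. In the order of its 6 group means, the E18.5 groups came first and overlapped each other, and the 4 postnatal groups overlapped their neighbours.

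Atp6v1b1, the B1 isoform of a subunit in the ATP-splitting head of the pump, used in acid-secreting epithelia, showed the same order of ages. At E18.5 it was 4.27, 4.09 and 4.25 in Igf1 null arrays and 4.62, 4.45 and 4.38 in wild-type arrays. At P15 it was 3.24, 3.41 and 3.11 in Igf1 null and 3.34, 3.74 and 3.59 in wild-type arrays, and at P90 it was 3.45, 3.68 and 3.40 in Igf1 null and 3.38, 3.30 and 3.20 in wild-type arrays. The embryonic arrays were again all above the postnatal ones. After birth the gene was dim: 3.39 was the highest Y-linked level in 1 of the 2 arrays with least Y-linked signal. At P15 2 of 3 Igf1 null arrays and 1 wild-type array lay below it, and at P90 all 3 wild-type arrays did. Its decline and its later differences carry that limit. From E18.5 to P15 it differed by -0.95 ± 0.11 in Igf1 null mice (limma, adjusted p = 7.03e-06) and -0.92 ± 0.11 in wild-type mice (limma, adjusted p = 8.17e-06).

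Atp6v0a4, the a4 isoform of the membrane part of the pump, which pairs with the B1 isoform in these epithelia, was steadier between arrays. It was 4.59, 4.54 and 4.56 in Igf1 null and 4.58, 4.72 and 4.73 in wild-type arrays at E18.5. All 12 postnatal arrays lay lower, between 3.95 and 4.10 in Igf1 null and 3.96 and 4.15 in wild-type mice. The P15 minus E18.5 difference was -0.54 ± 0.07 in Igf1 null mice (limma, adjusted p = 1.48e-05) and -0.64 ± 0.07 in wild-type mice (limma, adjusted p = 2.39e-06). In the values as deposited the Igf1 null difference was -0.23 and not called (limma, adjusted p = 0.283), where the median of all genes moved by 0.25.

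The start regions of both pump genes are shown because both fell from E18.5 to P15, as did Foxi1, whose protein belongs to the forkhead family. A fall in both genotypes was called for 15.2% of all genes, and whether Foxi1 acts on either pump gene was not tested. The sequences are RefSeq GRCm38.p6, from 250 bases before to 50 after the start of the gene, 5′ to 3′ on the strand of the gene. Atp6v1b1 is chr6:83742767-83743066 (plus strand) and Atp6v0a4 is chr6:38124537-38124836 (minus strand). Capitals mark a match to the forkhead motif GTAAACA or its reverse complement TGTTTAC.
Atp6v1b1: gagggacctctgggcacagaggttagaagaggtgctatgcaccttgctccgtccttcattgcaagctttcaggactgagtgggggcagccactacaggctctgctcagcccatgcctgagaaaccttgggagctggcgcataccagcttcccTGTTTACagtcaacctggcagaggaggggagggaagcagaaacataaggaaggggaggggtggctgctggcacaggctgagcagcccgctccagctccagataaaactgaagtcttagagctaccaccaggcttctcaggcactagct
Atp6v0a4: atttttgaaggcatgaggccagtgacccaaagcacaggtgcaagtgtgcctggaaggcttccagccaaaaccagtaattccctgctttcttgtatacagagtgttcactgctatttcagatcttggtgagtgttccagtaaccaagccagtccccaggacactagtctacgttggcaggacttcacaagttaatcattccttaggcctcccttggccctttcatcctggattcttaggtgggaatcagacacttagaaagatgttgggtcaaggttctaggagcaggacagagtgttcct
The Atp6v1b1 window held 1 match, on the minus strand, with its first base at -98 relative to the start, and the Atp6v0a4 window held none. Of 32851 promoters of this length, 1199 (3.65%) held the motif on either strand. The windows of Foxi1 and Kcnj10, the other members with an entry, held no match. A match to these letters is a description and not a binding site.

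Most other subunits of the V-ATPase went the opposite way. Of 23 listed subunit and accessory genes, 22 were measured, and at P15 15 were higher and 1 lower than at E18.5 in each genotype, with a median difference of 0.52 in Igf1 null and 0.55 in wild-type mice. Over all genes 20.3% were higher and 20.5% lower in Igf1 null mice, and 19.7% and 21.9% in wild-type mice. These shares stand beside the P15 minus E18.5 counts of the lists that follow too. Atp6v1b2, the B2 isoform present in most cells, was 8.24, 8.10 and 8.16 in Igf1 null arrays at P15, against 7.08, 7.14 and 6.93 at E18.5, a difference of 1.12 ± 0.09 (limma, adjusted p = 6.97e-08). In wild-type mice its difference was 1.07 ± 0.09 (limma, adjusted p = 8.97e-08). The arrays of the 2 ages did not overlap, in the opposite order to Atp6v1b1. Atp6v1a, the catalytic subunit of that head, differed by 0.85 ± 0.07 in Igf1 null (limma, adjusted p = 1.77e-07) and 0.90 ± 0.07 in wild-type mice (limma, adjusted p = 9.55e-08). Atp6v0d2, the d2 isoform that osteoclasts use to acidify bone, differed by 2.41 ± 0.19 in Igf1 null mice (limma, adjusted p = 7.29e-08) and 1.79 ± 0.19 in wild-type mice (limma, adjusted p = 1.38e-06). The single lower subunit was Atp6v1g3 in Igf1 null mice (-0.55 ± 0.21, limma, adjusted p = 0.0457) and Atp6v1c2 in wild-type mice (-0.48 ± 0.13, limma, adjusted p = 0.00862), both named after their values were seen. Without any 1 of the Igf1 null arrays of E18.5, or without Igf1 null replicate 2 or 3 or any wild-type array of P15, 0 subunits were lower in Igf1 null mice, and the same held without wild-type E18.5 replicate 3, Igf1 null P90 replicate 1 or 2, or wild-type P90 replicate 3.

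**Figure D2:**
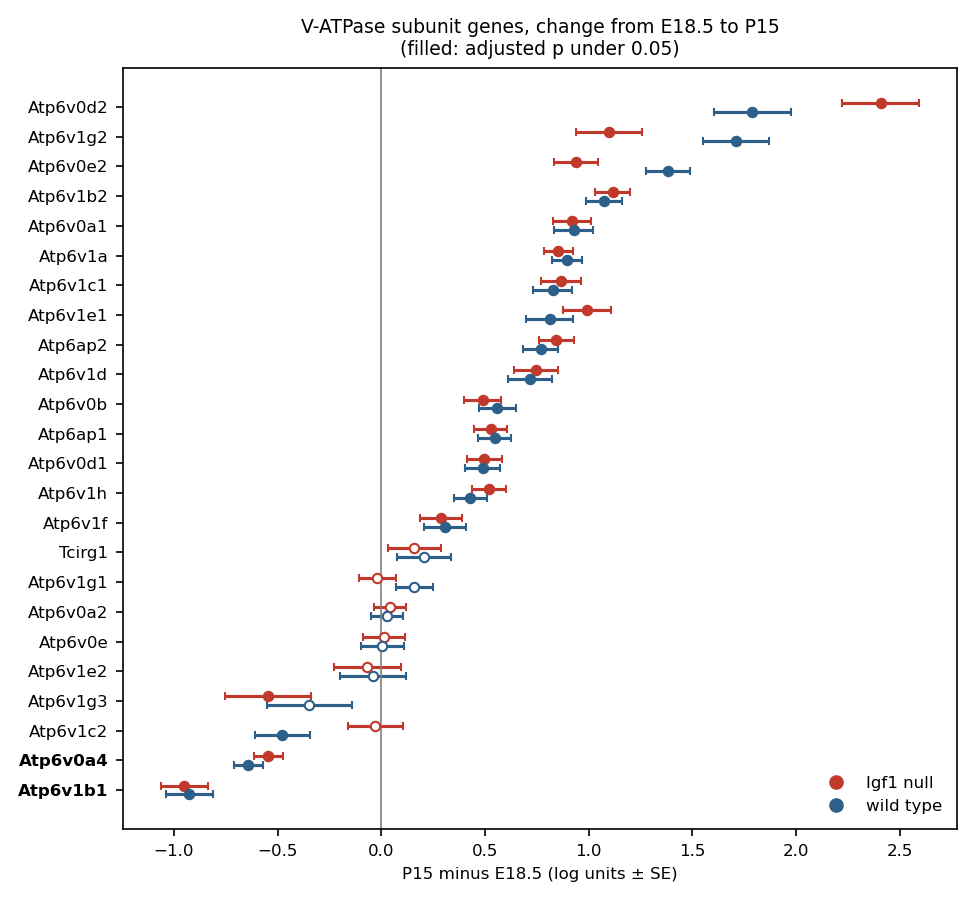
P15 minus E18.5 difference of each measured V-ATPase subunit or accessory gene, in log units with the SE of the fit, Igf1 null above wild type, filled where the adjusted p is under 0.05. Genes are ordered by the wild-type value. Atp6v1b1 and Atp6v0a4 (bold) lie at -0.95 and -0.54 in Igf1 null mice, where Atp6v1g3 lies beside the second at -0.55, and at -0.92 and -0.64 in wild-type mice, while 15 others lie above 0 and are filled in each genotype.

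The within-array log difference between an epithelial isoform and its common counterpart compares the isoforms with each other apart from any shift of a whole array, and these pairs were chosen after the values were seen. Its size depends on the probes and only its shift between ages is read. Atp6v1b1 minus Atp6v1b2 was -5.04 to -4.37 in the 6 arrays of P15, against -3.05 to -2.43 in the 6 arrays of E18.5, a shift of -2.03 that was -2.07 in Igf1 null and -2.00 in wild-type mice. Atp6v0a4 minus Atp6v0a1 was -3.47 to -3.09 at P15, against -1.98 to -1.61 at E18.5, a shift of -1.52. The separation of the ages follows from the opposite order of the isoforms already given. The outcome of a permutation test run on it was thus fixed beforehand, and the test is not used here. The size of the first shift rests in part on the dim postnatal levels of Atp6v1b1. In the values as deposited the shifts were -2.00 and -1.50.

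Several other genes of Foxi1-type acid-base cells fell as well, and Car2 rose in both genotypes. Of 12 listed genes, all measured, 2 were higher and 6 lower at P15 in Igf1 null mice, and 1 was higher and 7 lower in wild-type mice, with medians of -0.45 and -0.48. Car12, a carbonic anhydrase of the cell surface, differed by -1.22 ± 0.22 in Igf1 null (limma, adjusted p = 0.000429) and -1.06 ± 0.22 in wild-type mice (limma, adjusted p = 0.0013). Tfcp2l1, a transcription factor of acid-secreting kidney cells in mouse, differed by -0.60 ± 0.09 in Igf1 null (limma, adjusted p = 4.38e-05) and -0.65 ± 0.09 in wild-type mice (limma, adjusted p = 1.79e-05). Slc26a4, which encodes pendrin and was named after its values were seen, was 4.85, 4.69 and 4.23 at P15 in Igf1 null arrays, against 5.14, 4.99 and 5.17 at E18.5 (-0.51 ± 0.16, limma, adjusted p = 0.0168). In wild-type arrays it was 4.54, 4.75 and 4.87 at P15, against 5.31, 5.19 and 5.24 at E18.5 (-0.53 ± 0.16, limma, adjusted p = 0.0134), with no overlap in either genotype. Car2, a cytosolic carbonic anhydrase of many cell types that include osteoclasts, oligodendrocytes and red cells, differed by 1.28 ± 0.17 in Igf1 null (limma, adjusted p = 2.55e-05) and 1.97 ± 0.17 in wild-type mice (limma, adjusted p = 2.57e-07). The other higher gene in Igf1 null mice was Ascl3 (0.42 ± 0.13, limma, adjusted p = 0.0211), named after its values were seen, and 1 gene was higher without E18.5 replicate 3 or P15 replicate 1. The Ascl3 levels of both ages lay below 3.39 and were dim. In the values as deposited the lower counts were 2 in Igf1 null and 3 in wild-type mice.

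Among the genes of potassium and chloride transport, Kcnj10, an inward rectifier potassium channel of the ion-transporting epithelia of the ear that is also abundant in glia, was the only one that rose in both genotypes. At E18.5 it was 4.44, 4.69 and 4.60 in Igf1 null and 4.58, 4.52 and 4.54 in wild-type arrays. At P15 it was 5.43, 5.21 and 5.23 in Igf1 null and 5.38, 5.23 and 5.34 in wild-type arrays, and at P90 it was 5.45, 5.59 and 5.67 in Igf1 null and 5.51, 5.85 and 5.56 in wild-type arrays. The 3 ages formed 3 steps in which no array of a later age was below one of an earlier age, and the genotypes overlapped within each step. P15 differed from E18.5 by 0.72 ± 0.10 in Igf1 null mice (limma, adjusted p = 3.12e-05) and 0.77 ± 0.10 in wild-type mice (limma, adjusted p = 1.22e-05). In wild-type mice this is 2.17-fold with a natural logarithm and 1.71-fold with base 2.

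Markers of astrocytes, a glial cell of the brain, moved with Kcnj10 between E18.5 and P15. All 6 listed markers were higher at P15 in both genotypes, by a median of 1.16 in Igf1 null and 0.98 in wild-type mice, with Gfap, the glial filament protein, higher by 2.41 ± 0.19 in Igf1 null (limma, adjusted p = 1e-07) and 2.74 ± 0.19 in wild-type mice (limma, adjusted p = 2.41e-08). Their mean level per array was 6.07 to 6.21 at P15 in Igf1 null mice, against 4.64 to 4.77 at E18.5, and 6.10 to 6.26 at P15 in wild-type mice, against 4.66 to 4.76 at E18.5. At P90 it was 5.85 to 6.13 in Igf1 null and 5.93 to 6.08 in wild-type mice, and no marker of the 6 was called higher than at P15. Kcnj16, whose channel protein pairs with that of Kcnj10, differed by 1.89 ± 0.19 in Igf1 null (limma, adjusted p = 9.62e-07) and 1.12 ± 0.19 in wild-type mice (limma, adjusted p = 0.000155). Its Igf1 null levels at E18.5 were dim, at 2.89, 2.44 and 3.14, below the Y-linked level of 3.39. Markers of hair cells, the sensory cells of the organ, moved with the genes that fell: 6 of 8 were lower at P15 in each genotype. Their mean level was 3.69 to 3.82 at P15 in Igf1 null arrays, against 4.06 to 4.37 at E18.5, and 3.60 to 3.80 at P15 in wild-type arrays, against 4.29 to 4.39 at E18.5. Slc26a5, which encodes the motor protein of cochlear outer hair cells, was between 2.03 and 2.55 in all 18 arrays. The part of other cell types in the age differences was not tested.

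**Figure D3:**
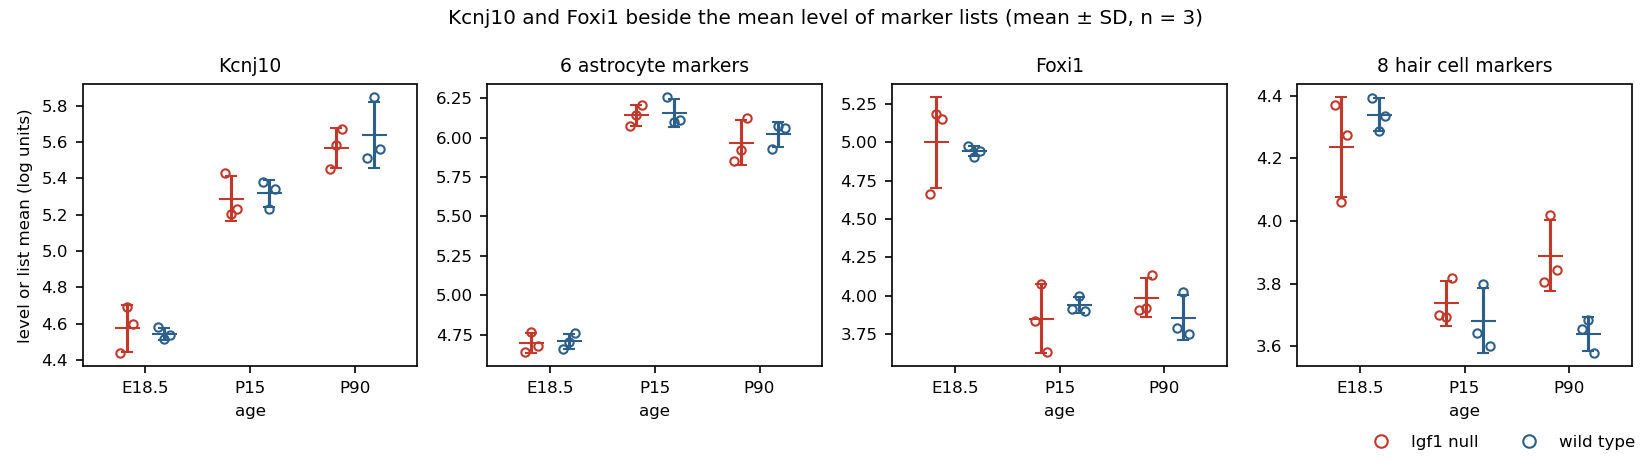
Level of Kcnj10 and Foxi1 beside the mean level of 6 astrocyte and 8 hair cell markers, in log units against age, for every array, Igf1 null (red) left of wild type (blue), with mean and SD of 3 arrays. Kcnj10 and the astrocyte markers lie higher at P15 than at E18.5, and Foxi1 and the hair cell markers lie lower.

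Slc12a2, the potassium uptake cotransporter of dark cells, which many other cells express too, differed little between ages. At E18.5 it was 7.25, 7.11 and 7.15 in Igf1 null and 7.27, 7.24 and 7.22 in wild-type arrays. At P15 it was 7.48, 7.33 and 7.40 in Igf1 null and 7.16, 7.21 and 7.40 in wild-type arrays, and at P90 it was 7.42, 7.50 and 7.57 in Igf1 null and 7.34, 7.26 and 7.40 in wild-type arrays. The Igf1 null arrays of P15 were all above those of E18.5, whereas the wild-type arrays of these ages overlapped. From E18.5 to P15 it differed by 0.24 ± 0.08 in Igf1 null mice (limma, adjusted p = 0.023) and 0.02 ± 0.08 in wild-type mice (limma, adjusted p = 0.894), and these differed by 0.22 ± 0.11, which was not called (limma, adjusted p = 0.608). The Igf1 null call was lost with array medians set equal (0.13, limma, adjusted p = 0.425), without the 4 arrays that stood apart (limma, adjusted p = 0.336) and without replicate 2 or 3 at E18.5 or replicate 1 or 3 at P15 (limma, adjusted p from 0.0542 to 0.0919).

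Bsnd encodes barttin, the subunit that chloride channels of dark cells and of the kidney need to reach the membrane. At E18.5 it was 3.66, 3.46 and 3.87 in Igf1 null and 3.43, 4.06 and 3.95 in wild-type arrays, and at P15 it was 3.42, 3.35 and 3.48 in Igf1 null and 2.99, 3.32 and 3.09 in wild-type arrays. At P90 it was 3.26, 3.58 and 3.61 in Igf1 null and 3.63, 3.61 and 3.41 in wild-type arrays. The wild-type arrays of P15 were all below those of E18.5, and the embryonic wild-type arrays were the most spread. The P15 minus E18.5 difference was -0.25 ± 0.15 in Igf1 null mice (limma, adjusted p = 0.218) and -0.68 ± 0.15 in wild-type mice (limma, adjusted p = 0.00214), which became -0.52 in the values as deposited (limma, adjusted p = 0.0516). These changes differed by 0.43 ± 0.22, which was not called (limma, adjusted p = 0.613). Many postnatal Bsnd and Kcne1 values, like those of Atp6v1b1, lie near or below 3.39, the Y-linked level below which 19.8% of genes lay in every group mean, and are dim. In the other array with little Y-linked signal the level was 2.18, with 5.12% of genes below.

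Kcnq1, the pore of the channel through which potassium enters endolymph, was modestly lower at P15. At E18.5 it was 4.59, 4.53 and 4.51 in Igf1 null and 4.43, 4.46 and 4.34 in wild-type arrays. At P15 it was 4.18, 4.31 and 4.17 in Igf1 null and 4.19, 4.10 and 4.12 in wild-type arrays, and at P90 it was 4.11, 4.43 and 4.25 in Igf1 null and 3.90, 4.30 and 4.04 in wild-type arrays. No P15 array reached the E18.5 range of its genotype, and the P90 arrays were more spread than those of the other ages. P15 differed from E18.5 by -0.32 ± 0.10 in Igf1 null mice (limma, adjusted p = 0.0149) and -0.27 ± 0.10 in wild-type mice (limma, adjusted p = 0.0346). In the values as deposited it was -0.02 in each genotype and not called (limma, adjusted p = 0.952 in Igf1 null and 0.94 in wild-type mice). The Igf1 null call was lost without P15 replicate 3 (limma, adjusted p = 0.0551), and the wild-type call was lost without any 1 wild-type array of these ages other than E18.5 replicate 3 (limma, adjusted p from 0.0509 to 0.101).

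Kcne1, the subunit that slows and enlarges the current of the KCNQ1 channel, was called in wild-type mice. At E18.5 it was 4.02, 3.71 and 3.88 in Igf1 null and 4.05, 4.21 and 4.01 in wild-type arrays. At P15 it was 3.94, 3.73 and 3.90 in Igf1 null and 3.41, 3.74 and 3.63 in wild-type arrays, and at P90 it was 3.73, 3.77 and 3.35 in Igf1 null and 3.36, 3.36 and 3.43 in wild-type arrays. The Igf1 null arrays of E18.5 and P15 covered the same range, and the wild-type arrays of these ages did not overlap. From E18.5 to P15 it differed by -0.01 ± 0.12 in Igf1 null mice (limma, adjusted p = 0.942) and -0.50 ± 0.12 in wild-type mice (limma, adjusted p = 0.00289). The difference between these changes was 0.49 ± 0.17, with an unadjusted limma p of 0.0107 that did not pass the adjustment over all genes (limma, adjusted p = 0.421). In the values as deposited the differences were 0.28 in Igf1 null mice and -0.30 in wild-type mice, and the wild-type one was not called (limma, adjusted p = 0.221).

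**Figure D4:**
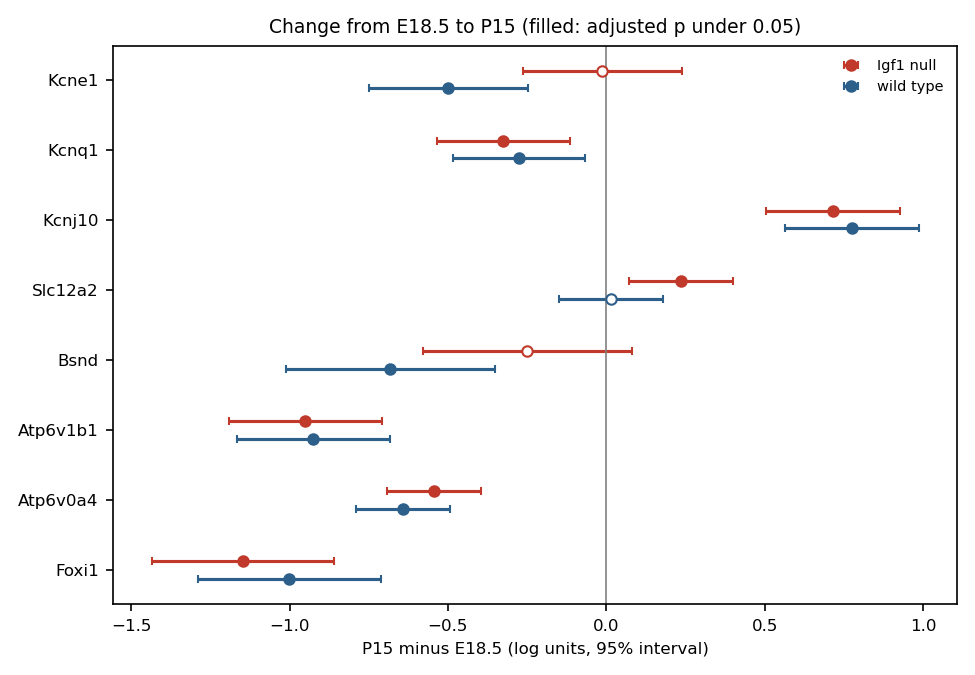
P15 minus E18.5 difference of the 8 genes, in log units with 95% intervals of the fit, Igf1 null (red) above wild type (blue), filled where the adjusted p is under 0.05. Kcnj10 lies at 0.72 in Igf1 null and 0.77 in wild-type mice, Foxi1 at -1.15 in Igf1 null mice, and the intervals of the 2 genotypes overlap for each gene.

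The partners of potassium secretion went both ways. Of 16 listed genes 11 were measured, and at P15 5 were higher and 4 lower in Igf1 null mice and 4 were higher and 4 lower in wild-type mice, with medians of -0.16 and 0.11. Without Igf1 null E18.5 replicate 1 or any 1 of the Igf1 null P15 arrays, 2 were lower in Igf1 null mice, and 1 was lower in the values as deposited. Atp1b1, a subunit of the sodium pump that drives the uptake step, differed by 1.25 ± 0.12 in Igf1 null (limma, adjusted p = 7.73e-07) and 1.51 ± 0.12 in wild-type mice (limma, adjusted p = 1.03e-07). Wnk4, a kinase that regulates cation and chloride cotransporters, differed by -0.97 ± 0.08 in Igf1 null (limma, adjusted p = 1.09e-07) and -1.12 ± 0.08 in wild-type mice (limma, adjusted p = 2.04e-08). Stk39, a kinase that WNK kinases activate and that acts on NKCC1, differed by -0.53 ± 0.07 in Igf1 null (limma, adjusted p = 1.87e-05) and -0.67 ± 0.07 in wild-type mice (limma, adjusted p = 1.56e-06).

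Single genes of sodium and calcium absorption also held large changes. All 12 listed were measured, and 4 were higher and 2 lower at P15 in Igf1 null mice and 3 were higher and 2 lower in wild-type mice. That is 6 of 12 called in Igf1 null mice, against 40.8% of all genes, and 5 of 12 in wild-type mice, against 41.5%. The list medians were 0.03 in Igf1 null and 0.05 in wild-type mice. In Igf1 null mice 1 was lower without E18.5 replicate 3, P15 replicate 1 or P15 replicate 2. Calb1, a calcium-binding protein of neurons and ear epithelia, differed by 3.95 ± 0.15 in Igf1 null (limma, adjusted p = 1.62e-10) and 3.40 ± 0.15 in wild-type mice (limma, adjusted p = 5.43e-10). Trpv4, a calcium-permeable channel, differed by -1.62 ± 0.11 in Igf1 null (limma, adjusted p = 1.47e-08) and -1.76 ± 0.11 in wild-type mice (limma, adjusted p = 5.93e-09). Of 10 other subunits of the Kir, KCNE and KCNQ families 8 were measured, with 2 higher and 1 lower at P15 in Igf1 null mice and 1 higher and 2 lower in wild-type mice. In each genotype 3 of 8 were called, near the share of all genes. The Igf1 null counts were 1 higher without replicate 1 or 3 of either age, and 2 lower without wild-type P90 replicate 1. Kcne4, a relative of Kcne1 that inhibits KCNQ1 channels, differed by -1.08 ± 0.10 in Igf1 null (limma, adjusted p = 4.33e-07) and -1.40 ± 0.10 in wild-type mice (limma, adjusted p = 2.76e-08).

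Between P15 and P90 none of the 8 genes was called in Igf1 null mice, against 13% of all genes, and 1 was called in wild-type mice, against 17.9%. In the values as deposited 6 were called in Igf1 null mice, where the median of all genes moved by 0.39. The Igf1 null mice had no gene of the 8 with an adjusted p under 0.05 in limma and 2 with an unadjusted p under 0.05, where 25.7% of all genes passed. Kcnj10 was higher at P90 by 0.28 ± 0.10 in Igf1 null mice (limma, adjusted p = 0.0784) and by 0.32 ± 0.10 in wild-type mice (limma, adjusted p = 0.0366), with no overlap between the ages in either genotype. The wild-type call was lost with either other scaling and with 5 other choices of model terms or arrays (limma, adjusted p from 0.055 to 0.401), and without any 1 of the wild-type P15 arrays or P90 replicate 2 (limma, adjusted p from 0.0575 to 0.183). Bsnd differed by 0.42 ± 0.15 in wild-type mice (limma, adjusted p = 0.0747), and this was called in the values as deposited (0.95, limma, adjusted p = 0.00249). Atp6v1b1 differed by 0.26 ± 0.11 in Igf1 null (limma, adjusted p = 0.166) and -0.26 ± 0.11 in wild-type mice (limma, adjusted p = 0.12), and the difference of 0.52 ± 0.16 between these changes was not called (limma, adjusted p = 0.714).

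No difference between Igf1 null and wild-type mice was called for any of the 8 genes. The limma count was 0 of 8 at E18.5, against 0.0802% of all genes called, 0 at P15, against 0.015%, 0 at P90, against 0.296%, and 0 for the mean of the 3 ages, against 0.0351%. A test that the genotype difference was equal at the 3 ages called none of the 8, against 0.256% of all genes, and the difference between the genotypes in the change from E18.5 to P90 was called for none, against 0.306%. At an unadjusted p under 0.05 the counts were 1 at E18.5, where 12.5% of all genes passed, 2 at P15 (6.97%), 1 at P90 (11.1%), 1 for the mean (7.68%) and 2 for the test across ages (14.5%). For the genotype difference in the change from E18.5 to P90 the count was 3 (Atp6v1b1, Kcne1 and Slc12a2). The share of all genes at that threshold was not counted for this change. The arrays of the genotypes did not overlap for 2 of the 8 genes at E18.5, against 19.7% of all genes, for 1 at P15 (16.5%) and for 2 at P90 (10.5%).

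Atp6v1b1 had the smallest unadjusted p of the 8 at both early ages. At E18.5 all 3 Igf1 null arrays (4.09 to 4.27) were below all wild-type arrays (4.38 to 4.62), a difference of -0.28 ± 0.11 (limma, unadjusted p = 0.0281, adjusted p = 0.348). At P15 the genotypes overlapped by 1 wild-type array, and the difference was -0.30 ± 0.11 (limma, unadjusted p = 0.0181, adjusted p = 0.594). At P90 the order was turned, with Igf1 null arrays at 3.40 to 3.68 and wild-type arrays at 3.20 to 3.38, and the test across ages gave an unadjusted p of 0.00865 and an adjusted p of 0.224 (limma). Kcne1 at P15 was 0.27 ± 0.12 (limma, adjusted p = 0.678) and Slc12a2 at P90 was 0.16 ± 0.08 (limma, adjusted p = 0.448), and for Slc12a2 all 3 Igf1 null arrays lay above the wild-type arrays. Kcnq1 was higher in the Igf1 null group mean at every age, by 0.14 ± 0.06 in the mean of the 3 (limma, unadjusted p = 0.0301, adjusted p = 0.569).

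The 95% intervals give the size of difference that 3 arrays a group leave room for. For Kcnj10, whose group means differed by up to 0.07 between genotypes, they ran from -0.18 to 0.24 at E18.5, from -0.24 to 0.18 at P15 and from -0.28 to 0.14 at P90. For Atp6v0a4 they ran from -0.26 to 0.03 at E18.5, from -0.17 to 0.13 at P15 and from -0.14 to 0.16 at P90. For Bsnd they were widest, from -0.48 to 0.18 at E18.5 and from -0.05 to 0.61 at P15. Beside these comparisons, the mean level of 7 skeletal muscle markers was 6.78 to 7.22 in Igf1 null and 5.89 to 6.42 in wild-type arrays at E18.5, and 6.18 to 6.70 in Igf1 null and 7.17 to 7.29 in wild-type arrays at P15. At E18.5 the mean of 4 bone markers was 4.85 to 5.18 in Igf1 null and 5.76 to 5.95 in wild-type arrays, that of 8 osteoclast markers was 4.20 to 4.33 in Igf1 null and 4.36 to 4.55 in wild-type arrays, and that of 6 macrophage markers was 5.49 to 5.55 in Igf1 null and 5.58 to 5.77 in wild-type arrays. The mean of 4 erythroid markers was 5.58 to 6.28 in Igf1 null and 6.40 to 6.92 in wild-type arrays at P15, and 4.70 to 5.77 in Igf1 null and 5.82 to 6.61 in wild-type arrays at P90. At P90 melanocyte markers averaged 3.69 to 3.91 in Igf1 null and 3.46 to 3.50 in wild-type arrays, and hair cell markers averaged 3.81 to 4.02 in Igf1 null and 3.58 to 3.68 in wild-type arrays. At that age the mean of 8 mucosal epithelium markers was 3.90 to 4.42 in Igf1 null and 3.59 to 3.75 in wild-type arrays, and the sex-linked genes differed as given above. The part of these in the genotype values was not tested. With a sex score in the fit 0 of the 8 genes were called at any age, but 0 were called without it too. At P90 Xist also separated the genotypes fully, so this count cannot show the part of sex.

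**Figure D5:**
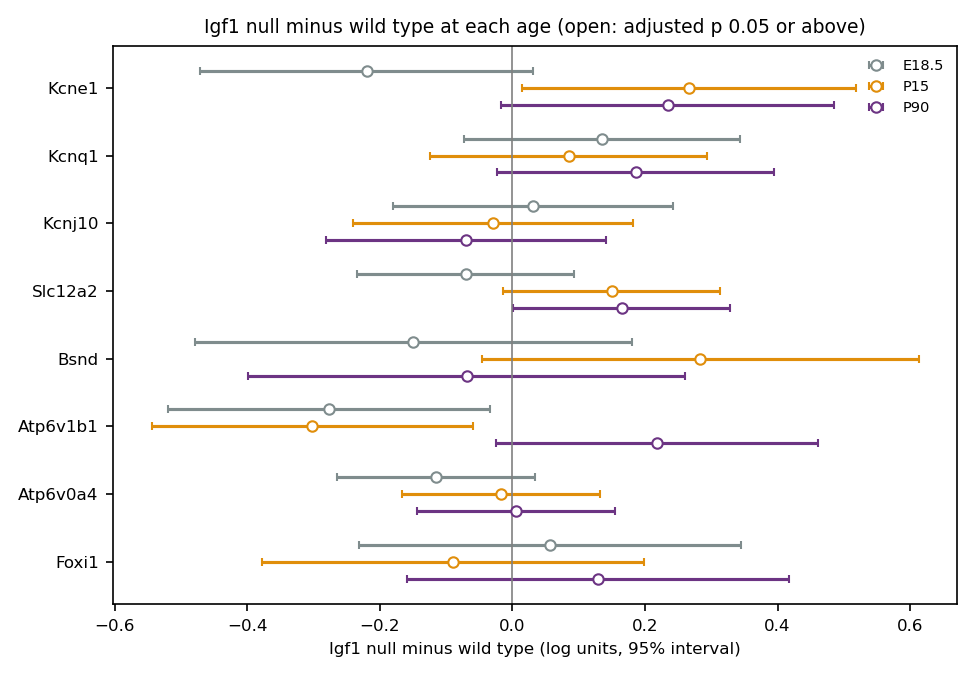
Igf1 null minus wild type difference of the 8 genes at E18.5, P15 and P90, in log units with 95% intervals of the fit, all open because no adjusted p is under 0.05. Atp6v1b1 lies at -0.28, -0.30 and 0.22 across the 3 ages, and Kcnj10 at 0.03, -0.03 and -0.07.

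Outside the 8 genes, a related channel was called between genotypes at P90. Kcnj15, another inward rectifier subunit, was 4.52, 4.43 and 4.01 in Igf1 null arrays at P90, against 3.07, 3.30 and 3.14 in wild-type arrays, a difference of 1.15 ± 0.14 (limma, adjusted p = 0.00271). All 3 Igf1 null arrays were above all wild-type arrays, which lay below 3.39 and were dim. Xist separated the genotypes fully at P90, so genotype and sex cannot be told apart there. With the sex score in the fit the difference was 0.93 and not called (limma, adjusted p = 0.399), and it was also not called with only the P90 arrays (limma, adjusted p = 0.104) or without the 4 arrays that stood apart (1.18, limma, adjusted p = 0.214). None of the other lists of transport genes had a genotype call at any single age.

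The profile of each gene over the 18 arrays was set against all others by the root-mean-square difference after centring, a description with age as the main shared source of variation. Foxi1 was most like Rarg (0.159), and among the 8 genes it was closest to Atp6v1b1 (0.215), which ranked 115 among all genes. Atp6v1b1 was most like Evc2 (0.149), and Foxi1 ranked 181 for it. Atp6v0a4 was most like Rint1 (0.0588), Kcnj10 like Slc20a1 (0.0758), Slc12a2 like Mkln1 (0.0494), Kcnq1 like Mrgbp (0.094), Kcne1 like Etv6 (0.11) and Bsnd like E230025N22Rik (0.138). Kcne1, whose protein joins that of Kcnq1 in 1 channel, had Kcnq1 as its closest member (0.215) but at rank 1904 of all genes. Within groups between 1 and 4 of the 5 potassium and chloride genes lay above their group mean in any array, so all 5 never lay on the same side. Of the genes of the proton-secreting cells, Atp6v1b1, Atp6v0a4 and Foxi1 all lay above their group mean in replicate 2 of P15 in each genotype. None did in replicate 1 of P15 in each genotype and in Igf1 null replicate 1 of P90. With 3 arrays a group these counts are a description, and whether the genes move together was not tested.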

How the data were processed

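Vestibular RNA of 18 arrays was amplified, labelled and read on a whole-transcript gene array; tissue came from animals perfused with fixative, per the labels' protocols. The values deposited by the authors are logarithms, and were treated as natural log values: their highest, 10.03, is an intensity of 22700 with base e and 1050 with base 2. Neither the base nor the normalization is given in the sources used here. No column of values lacked a sample.

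Deposited array medians ran from 3.88 to 4.82, so the 28853 probe sets were quantile normalized. Probe sets were named through the annotation of the platform, parts of which may be outdated: 23410 probe sets were listed, 21789 with 1 symbol and 1621 with several, and 5443 were not listed. Of the symbols, 21698 matched the RefSeq table of GRCm38.p6. The probe set with the highest mean stood for a gene, which left 19938 genes. A mean per group was fitted with limma 3.58.1 in R 4.3.3 (lmFit, eBayes, 2.98 prior degrees of freedom), tested on simulated data. The number of arrays limits precision.

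The 8 genes and all gene lists were chosen with earlier results of these data known. Named beside the 8 were up to 4 called genes of a pathway list with the smallest p, up to 3 of a marker list, the genes most like each member, and label checks. Alternatives were median scaling, the values as deposited, an intensity trend, dim genes dropped, terms for replicate number, sex and the 4 arrays apart, fits on only the groups compared, leaving out each array, and, added after seeing the data, leaving out the 4 arrays. The 4 arrays were picked from the third principal component of these data, so the term for them rests on that split as well. Over all genes after normalization, same-numbered arrays did not deviate together (correlations from -0.185 to 0.238), and replicate numbers were not taken to pair arrays. In the deposited values, E18.5 arrays of a number had similar medians. They were 3.88 in Igf1 null and 3.94 in wild type for replicate 1, 4.31 and 4.27 for replicate 2, and 3.90 and 3.97 for replicate 3. At that age Xist fell and Y-linked signal rose from replicate 1 to 3 in each genotype. Whether arrays of a number shared a batch or pool was not tested.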

Additional observations from a re-analysis of the deposited data

Results flagged for a closer look

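The genotype difference of 3 genes from the pathway lists, none of them among the 8, differed between ages by a test of the change itself. The change from E18.5 to P90 was larger in Igf1 null than in wild-type mice by 1.202 ± 0.20 for Kcnj15 (limma, adjusted p = 0.0323), by 1.41 ± 0.26 for Kcnj16 (limma, adjusted p = 0.0444) and by 1.00 ± 0.19 for Ascl3 (limma, adjusted p = 0.0444), against 0.306% of all genes called. For Kcnj15 the test across the 3 ages was also called (limma, adjusted p = 0.0441). Kcnj16 was 5.37, 5.35 and 5.31 in Igf1 null arrays at P90, against 4.43, 4.44 and 4.81 in wild-type arrays, and 2.89, 2.44 and 3.14 in Igf1 null arrays at E18.5, against 3.54, 3.52 and 3.28 in wild-type arrays. The Igf1 null values of E18.5 and that of wild-type replicate 3 lie below 3.39 and are dim, which limits the Kcnj16 change. Ascl3, a transcription factor of ion-transporting epithelial cells, was 2.92, 2.67 and 2.72 in Igf1 null arrays at P90, against 2.36, 2.23 and 2.23 in wild-type arrays, all dim, below 3.39. At P90 all Igf1 null arrays had high Xist and all wild-type arrays low Xist. These 3 genes were found by searching the lists, and their calls of a change were not rerun under the other choices of processing.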

How the results depend on the processing

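The called P15 minus E18.5 differences of Foxi1, Atp6v1b1 and Kcnj10 in both genotypes, and of Atp6v0a4 in wild-type mice, kept their direction and call under every alternative run. No genotype difference of the 8 genes was called under any. With the values as deposited 4 members were called for wild-type P15 minus E18.5 instead of 7. For wild-type P90 minus P15, 0 instead of 1 were called under the replicate block, the term for the 4 arrays, the sex score, only the groups compared and without the 4 arrays. For Igf1 null P90 minus P15, 1 instead of 0 was called with median scaling, 6 as deposited and 1 without the 4 arrays. Leaving out single arrays gave 4 to 6 calls for Igf1 null P15 minus E18.5 (4 without Igf1 null P15 replicate 3), 6 to 7 for wild type, 0 to 1 for Igf1 null P90 minus P15 (1 without Igf1 null P15 replicate 1 or wild-type P90 replicate 2) and 0 to 2 for wild type (2 without wild-type E18.5 replicate 1). The P15 minus E18.5 differences that turned sign were none of them called: Slc12a2 in wild-type mice (-0.18 with median scaling, -0.0573 to 0.063 without single arrays, below 0 without wild-type P15 replicate 3), Kcne1 in Igf1 null mice (0.28 as deposited, -0.0919 to 0.061 without single arrays, above 0 without E18.5 replicate 1 or P15 replicate 2) and Bsnd in Igf1 null mice (0.0292 as deposited); the wild-type P90 minus P15 difference of Atp6v1b1 became 0.24 as deposited. The wild-type Kcnq1 call at P15 was lost with an intensity trend (limma, adjusted p = 0.0557). Array medians set equal moved the median of all genes by -0.18 for wild-type P15 minus E18.5, and the deposited values moved it by 0.39 for Igf1 null P90 minus P15. The replicate block changed no other call of a member, and took the genes called by the test across ages to 14 from 51 and by the mean genotype difference to 3 from 7. For the cases given, the cause was not tested. The dim postnatal levels of Atp6v1b1, Kcne1 and Bsnd limit what their differences show.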

Other observations

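The marker lists of other tissues moved with age as well. Between E18.5 and P15, 7 of 8 osteoclast markers were higher in Igf1 null mice and 7 in wild-type mice, where 1 was lower, and between P15 and P90 all 8 were lower in each genotype. Their mean level was 5.24 to 5.71 in Igf1 null and 5.31 to 5.74 in wild-type arrays at P15. Of the subunits shared with osteoclasts, Atp6v0d2 was lower at P90 than at P15 by 0.55 ± 0.19 in Igf1 null mice (limma, adjusted p = 0.066) and by 1.16 ± 0.19 in wild-type mice (limma, adjusted p = 0.00113). All 4 measured bone markers were higher at P15 than at E18.5 in each genotype, by medians of 2.92 in Igf1 null and 1.76 in wild-type mice, and lower again at P90. Of all genes, 13% in Igf1 null and 17.9% in wild-type mice were called between P15 and P90, higher and lower together. These shares stand beside the P90 counts of both lists.

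Of 8 melanocyte markers, genes of the pigment cells that lie beneath the dark cells, 3 were lower at P15 than at E18.5 in Igf1 null mice and 6 in wild-type mice, and none was higher. Pmel, a protein of the pigment granule, differed by -1.06 ± 0.11 in Igf1 null (limma, adjusted p = 2.5e-06) and -1.10 ± 0.11 in wild-type mice (limma, adjusted p = 1.46e-06). Of 4 peripheral glia markers, 2 were higher and 2 lower at P15 in each genotype, with Mbp, a myelin protein, higher by 1.41 ± 0.07 in Igf1 null (limma, adjusted p = 8.11e-10) and 1.69 ± 0.07 in wild-type mice (limma, adjusted p = 1.43e-10). Of 6 macrophage markers, 2 were higher and 1 lower in each genotype, and of 4 measured erythroid markers 3 were higher in each.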
